A study of Mus musculus with 2 samples.

Results

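Sprouty, Spred, DUSP6 and ETV genes are switched on by growth factor signalling and then restrain it or carry it forward. The 9 genes described here are Spry1, Spry2, Spry4, Spred1, Spred2, Dusp6, Etv1, Etv4 and Etv5. They were chosen by symbol, for this known role, although earlier results of these data were known when they were chosen. All 9 had a column in both count tables, out of 25120 genes with a column in either.

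Fibroblast growth factors bind receptor tyrosine kinases that activate Ras and then the kinases RAF, MEK and ERK. ERK activity raises transcription of these 9 genes in many tissues, so their transcripts are commonly read as a record of recent FGF or other receptor tyrosine kinase signalling. Sprouty proteins act near Ras and RAF, Spred proteins bring the Ras inhibitor neurofibromin to the membrane, and DUSP6 removes the activating phosphates from ERK in the cytoplasm. ETV1, ETV4 and ETV5 form the PEA3 group of ETS transcription factors and drive target genes of the pathway. In the brain, oligodendrocyte precursors carry PDGF and FGF receptors, astrocytes carry FGF receptors, and microglia signal to ERK through the CSF1 receptor.

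The 9 genes lie on 8 chromosomes of GRCm38 in the GENCODE vM21 annotation, and all are protein-coding. Spry1 is at chr3:37639947-37644598 (+), Spry2 at chr14:105891947-105896819 (−) and Spry4 at chr18:38586247-38601415 (−). Spred1 is at chr2:117121374-117182279 (+) and Spred2 at chr11:19924375-20024026 (+). Dusp6 is at chr10:99263231-99267489 (+). Etv1 is at chr12:38779380-38870484 (+), Etv4 at chr11:101769742-101785371 (−) and Etv5 at chr16:22381309-22439719 (−). Gm42922 overlaps Spry1 on the opposite strand, and 2 small RNA genes overlap Spry4 likewise. Whether the counting used the strand is not given in the sources used here, so reads of such overlapping genes cannot be told apart. The other 7 genes overlap no annotated gene.

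Adult C57BL/6 mice supplied the cells, which were taken from the basolateral amygdala, a region that weighs reward and threat. The treated pool of mice received FGF21, a hormone made mainly by the liver that signals through FGF receptors with the co-receptor KLB, at 1 mg/kg once daily for 3 days. The other pool received vehicle over the same time. Tissue of 3 mice was pooled per treatment, digested with pronase while actinomycin D held transcription still, and sorted for live cells with tdTomato fluorescence. The labels describe the sorted cells as KLB-expressing but do not give the alleles that drive tdTomato. Each pool gave 1 BD Rhapsody library, so no test between treatments was possible and every interval below is a 95% interval for counting error only. The FGF21 library held 14585503 UMIs (unique molecules) in 2455 barcodes, and the vehicle library 11130580 UMIs in 2925 barcodes. After filtering, 1935 FGF21 cells with a median of 6838 UMIs and 2337 vehicle cells with a median of 4232 UMIs were used. Neuron-like cells numbered 9 and 7. Klb itself had 0 UMIs in FGF21 and 1 UMI in vehicle microglia-like cells, and 0 UMIs in oligodendrocyte precursor-like and astrocyte-like cells of both libraries. Of all barcode sequences, 12 occurred in both libraries, 6 of them among the cells used.

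Capicua, a repressor that ERK inactivates, is known to bind an octamer of the form TGAATGAA and close spellings of it, and the ETV, Sprouty and Dusp6 genes are among its known targets. RefSeq promoter windows of GRCm38.p6, from 250 bases before to 50 after the start, were matched for 7 of the 9 genes (9 windows), with none for Spry4 and Etv4. On either strand, none of the 9 windows held TGAATGAA (in 1.30% of all 32851 promoter windows) or TGAATGGA (1.21%). None held the ETS octamer CCGGAAGT (3.89% of all), the AP-1 motif TGANTCA (7.81%) or the CRE motif TGACGTCA (1.79%). The spellings TCAATGAA and TCAATGGA were added after these windows had been read. TCAATGGA was found at 2 places in the Dusp6 window and TCAATGAA at 1 place in the Spry2 window, all on the strand opposite to the gene. Of all promoter windows, 0.670% held TCAATGGA, 0.749% held TCAATGAA and 3.84% held any of the 4 octamers. The stretches that hold them are shown because they hold the only matches among the motifs searched, and a match of letters is not a shown binding site. Capitals mark the octamer, which reads TCCATTGA or TTCATTGA on the gene's own strand. In Dusp6 the octamers span -24 to -17 and 2 to 9 relative to the start, and in Spry2 -54 to -47.
Dusp6, chr10:99263111-99263250 (+): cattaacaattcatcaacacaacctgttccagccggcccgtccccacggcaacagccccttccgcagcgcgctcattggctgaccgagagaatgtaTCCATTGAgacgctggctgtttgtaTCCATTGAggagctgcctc
Spry2, chr14:105896820-105896939 (−): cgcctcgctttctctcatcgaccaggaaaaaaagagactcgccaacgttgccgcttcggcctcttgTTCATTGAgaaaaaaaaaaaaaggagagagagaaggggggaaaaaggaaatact

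Cells were clustered without the 9 genes or the other pathway genes among the variable genes, and clusters were named from marker lists, so each name ends in "-like". Microglia-like cells numbered 892 in the FGF21 and 1423 in the vehicle library, oligodendrocyte precursor-like cells 577 and 370, and astrocyte-like cells 200 and 101. Smaller classes were oligodendrocyte-like (82 and 41 cells), committed oligodendrocyte precursor-like (38 and 38), mural-like, that is pericytes and smooth muscle (40 and 181), border macrophage-like (20 and 43) and erythroid-like (20 and 46). Border macrophage-like cells also held microglia markers, at a summed 8837 and 11037 CPM, beside 8532 and 14265 CPM of their own markers, and neutrophil markers at 1818 and 3140 CPM. A level is the share of a class's UMIs in counts per 1000000 (CPM) and is compared within a gene only, since CPM is not corrected for gene length. Free transcripts reached every class. Background was estimated from markers in classes taken to lack them, as the median over 14 pairs of class and marker list. It was 32.1% of UMIs in the FGF21 library (range 22.2% to 48.6%) and 27.3% in the vehicle library (20.0% to 42.7%). The 42.7% came from precursor markers in mural-like cells, where microglia and oligodendrocyte markers gave 23.1% and 20.0% in that library. Whether mural-like cells make some of the precursor markers was not tested. A gene is called mostly background in a class where the median share, spread as the library's own profile, accounts for over 50% of its UMIs there.

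The Sprouty genes were each high in oligodendrocyte precursor-like cells and in mural-like cells and at or near the background estimate in microglia-like cells. Spry1 was at 317 CPM in FGF21 and 277 CPM in vehicle precursor-like cells, its highest class in both libraries. Mural-like cells followed with 159.5 CPM (103 to 235) in the FGF21 and 172 CPM (139 to 212) in the vehicle library. Astrocyte-like cells had only 20.7 and 14.7 CPM, 25 and 6 UMIs, and the background estimate there exceeded the count. With every cell drawn down to 2000 UMIs, Spry1 was found in 43.6% of FGF21 and 41.5% of vehicle precursor-like cells, against 1.83% and 3.9% of astrocyte-like cells. Before this thinning the shares in precursor-like cells were 86.8% and 74.3%.

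Spry2 differed from Spry1 in its order of classes. It was highest in astrocyte-like cells, at 202 CPM (178 to 229) in the FGF21 and 198 CPM (157 to 246) in the vehicle library. Precursor-like cells had 157 and 119 CPM and mural-like cells 115 and 121 CPM, and the intervals of these overlapped in each library. Spry4 was highest in mural-like cells, at 313 CPM (231 to 413) and 257 CPM (215 to 304), and precursor-like cells came next with 301 and 241 CPM. The intervals of mural-like and precursor-like cells overlapped for Spry4 in both libraries, so their order is not resolved. In microglia-like cells the background estimate was 103% of the Spry1, 113% of the Spry2 and 131% of the Spry4 UMIs over both libraries, that is, as many UMIs as were counted or more. For Spry1 the libraries differed, with 130% in the FGF21 and 77.4% in the vehicle library. The vehicle level of 34.9 CPM (30.3 to 40.0) lay above the estimate of 27.0 CPM. With the profile of the barcodes that the filter left out taken as background, the estimate over both libraries was lower. It was 25.2% for Spry1, 49.9% for Spry2 and 34.9% for Spry4.

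Of the Spred genes, Spred1 was the more widely spread. Its level was 382 CPM in FGF21 and 347 CPM in vehicle precursor-like cells, and 366 and 349.9 CPM in astrocyte-like cells. These classes changed order between the libraries and their intervals overlapped, so Spred1 was placed in no class. It stayed above the background estimate in microglia-like cells, at 189 and 144 CPM with 42.9% background. Spred2 was highest in mural-like cells, at 82.9 CPM (44.2 to 142) and 80.4 CPM (58.0 to 109), on 13 and 42 UMIs. Precursor-like cells held 81.8 and 58.2 CPM, with intervals that overlapped those of mural-like cells in both libraries.

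Dusp6 was the only member highest in microglia-like cells in both libraries. Its level there was 488 CPM (470 to 507) in the FGF21 and 725 CPM (704 to 747) in the vehicle library. Border macrophage-like cells came next with 407 CPM (278 to 574) and 424.5 CPM (313 to 563), with an interval that overlapped that of microglia-like cells in the FGF21 library and lay below it in the vehicle library. In precursor-like cells it was at 221 and 198 CPM, of which the background estimate accounted for 44.1% and 66.8%. In oligodendrocyte-like and committed precursor-like cells, levels from 84.4 to 131 CPM were at the background estimate, which ranged from 101% to 138% of the UMIs.

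The ETV factors did not share a class. Etv4 and Etv5 were highest in precursor-like cells: Etv4 had 154 CPM in the FGF21 and 132 CPM in the vehicle library, and Etv5 had 382 and 349.9 CPM. Astrocyte-like cells held 103 and 95.4 CPM of Etv4, whose interval overlapped that of precursor-like cells in the vehicle library. Border macrophage-like cells came second for Etv5 in the FGF21 library, at 267 CPM (165 to 408), with an interval that overlapped that of precursor-like cells, and astrocyte-like cells held 250.3 and 196 CPM. Etv5 also exceeded the background estimate in microglia-like cells, at 248 and 162 CPM with 34.7% background. Etv1 was highest in oligodendrocyte-like cells, at 278 CPM (242 to 317) in the FGF21 and 411 CPM (340.3 to 492) in the vehicle library. Precursor-like cells followed with 220.1 CPM (207 to 233) and 262 CPM (242 to 283), below the intervals of oligodendrocyte-like cells.

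**Figure D1:**
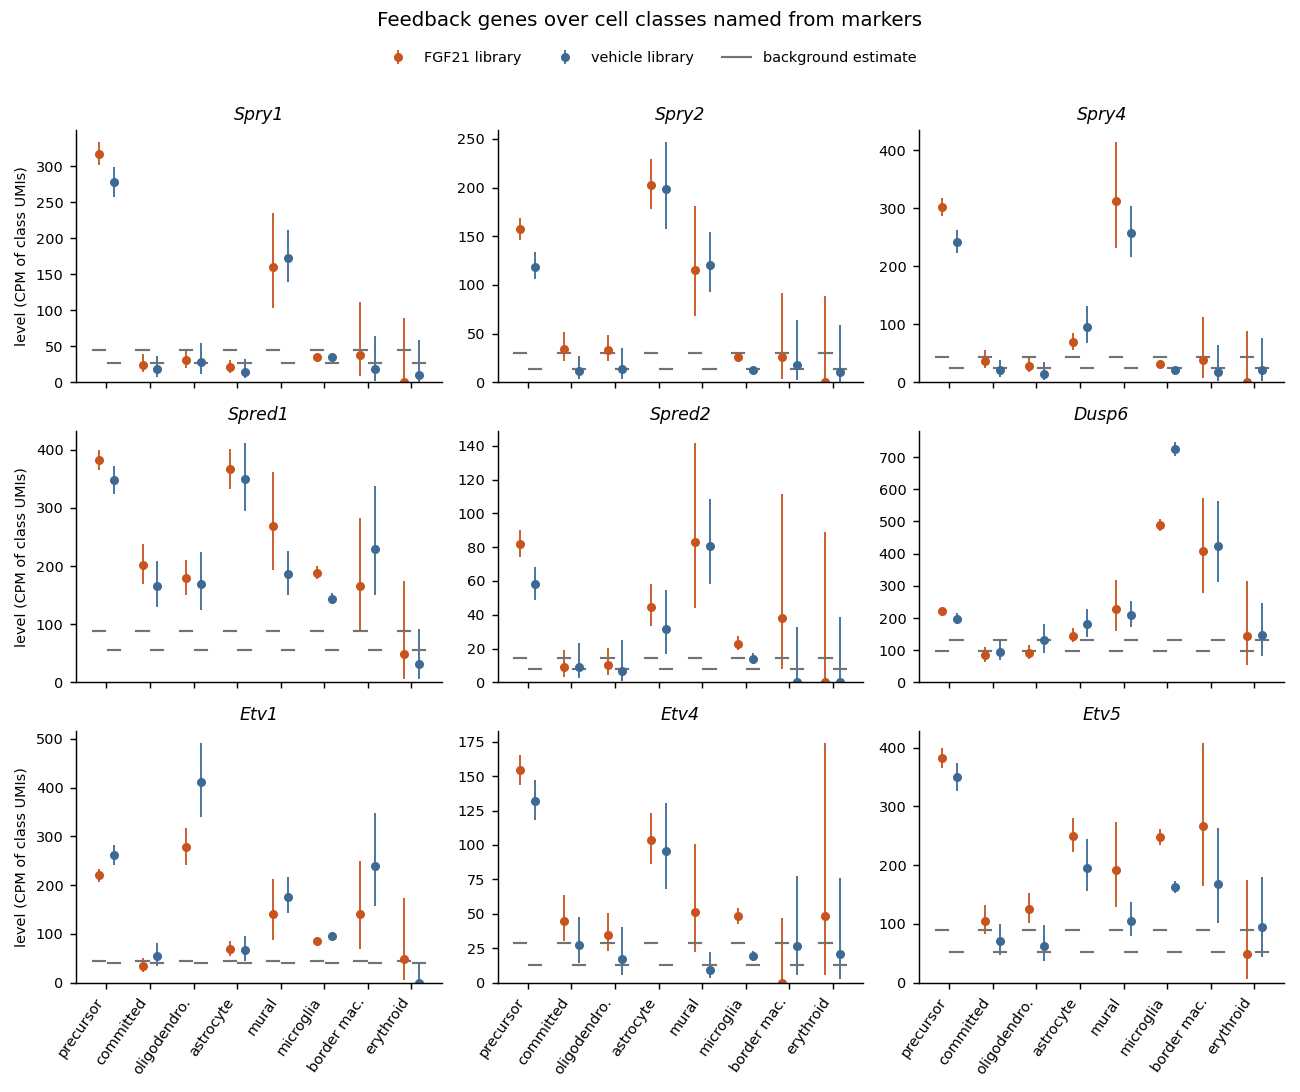
Level of each of the 9 genes in CPM of class UMIs (vertical axis) over 8 cell classes (horizontal axis), with FGF21 points left of vehicle points. Bars are exact Poisson 95% intervals for counting error, and grey ticks are the level that the background estimate alone would give. Dusp6 stands out in microglia-like cells at 488 and 725 CPM, Etv1 in oligodendrocyte-like cells at 278 and 411 CPM, and Spry1 in precursor-like cells at 317 and 277 CPM.

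Classes were then compared within each library, counting a gene where it was at least 1.5-fold apart in both. A gene needed at least 50 UMIs summed over both classes in each library, so it could pass through the higher class alone. Mural-like cells held 5 of the 9 genes at least 1.5-fold above microglia-like cells (14.7% of 9782 genes were), namely Spry1, Spry2, Spry4, Spred2 and Etv1. The ratio for Spry4 was 10.1 (7.19 to 13.9) in the FGF21 and 12.5 (9.70 to 16.1) in the vehicle library. Dusp6 was the 1 gene lower there (20.0% of genes were), at ratios of 0.471 and 0.290. Smooth muscle markers summed to 5659 CPM in FGF21 and 1404 CPM in vehicle mural-like cells, so the class differed in make-up between the libraries. Astrocyte-like cells held 5 of the 9 at least 1.5-fold below precursor-like cells (26.4% of 9218 genes were), namely Spry1, Spry4, Spred2, Etv1 and Etv5, and 0 above (7.77%). Spry1 was the furthest apart, at 0.0652 (0.0420 to 0.0965) and 0.0529 (0.0194 to 0.116). Border macrophage-like cells held 1 gene above microglia-like cells (7.40% of 9518 genes were), Etv1, at 1.64 (0.814 to 2.96) and 2.48 (1.62 to 3.64), and 0 below (17.4%). Endothelial-like cells numbered only 16 and 33, and they held 1 gene above microglia-like cells (11.4% of 9536 genes were), Spry2, on 3 and 4 UMIs, of which 1 cell held 100% in the FGF21 and 75% in the vehicle library. Astrocyte markers in endothelial-like cells summed to 6981 and 1098 CPM. They held 3 below (22.2%), namely Dusp6 on 7 and 10 UMIs, Etv1 on 1 and 3 UMIs and Etv5 on 6 and 5 UMIs. Between mural-like and endothelial-like cells only Spred1 had enough UMIs, and it was not apart (27.3% of 652 genes were higher in mural-like cells and 11.3% lower).

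Along the oligodendrocyte lineage all 9 genes were lower in committed precursor-like cells than in precursor-like cells in both libraries. Committed precursors are the short-lived cells, marked here by Enpp6 and Bmp4, that have left the precursor state and not yet made myelin. All 9 of 9 were at least 1.5-fold lower, against 16.9% of 9168 genes, and 6.05% of genes were higher. A gene could pass the UMI limit through precursor-like cells alone, which favours genes that are high there. The genes behind the 16.9% passed the same limit. Committed cells held from 6 UMIs (Spred2) to 136 UMIs (Spred1) of each gene in the FGF21 library. In the vehicle library they held from 4 UMIs (Spred2) to 73 UMIs (Spred1). The ratio of committed to precursor-like level was smallest for Spry1, at 0.0748 (0.0426 to 0.122) in the FGF21 and 0.0656 (0.0282 to 0.130) in the vehicle library. It was largest for Spred1, at 0.528 (0.441 to 0.629) and 0.478 (0.371 to 0.608). Spry4 had 37.0 and 20.5 CPM in committed cells against 301 and 241 CPM in precursor-like cells, and Etv5 had 105 and 70.5 CPM against 382 and 349.9 CPM. The levels left in committed cells were at the background estimate or near it for several genes, with Spry1 at 188% and 148% background and Spry4 at 119% and 116%, while Spred1 had 43.5% and 33.2%. The committed cells were the deeper ones, with medians of 15413 and 11015.5 UMIs against 8920 and 6431 UMIs, and they numbered 38 in each library. The count stayed at 9 with per-cell means and with cells drawn down to 2000 UMIs, alternatives that were added after the levels had been seen. After background subtraction the ratio could be formed in both libraries for Spred1 (0.387 in FGF21 and 0.380 in vehicle), Etv4 (0.123 and 0.119) and Etv5 (0.0539 and 0.0593). For the other 6 genes the committed level was at or below the background estimate in at least 1 library.

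Oligodendrocyte-like cells, which make myelin, held 8 of the 9 genes at least 1.5-fold below precursor-like cells (35.7% of 9017 genes were), and 0 above (7.36%). The exception was Etv1, at 1.26 (1.09 to 1.46) times the precursor-like level in the FGF21 and 1.57 (1.28 to 1.91) times in the vehicle library. Its levels over precursor-like, committed and oligodendrocyte-like cells were 220.1, 34.1 and 278 CPM in the FGF21 library. In the vehicle library they were 262, 54.5 and 411 CPM. Of these stages Etv1 was low at the committed one, where background made up 133% and 72.2% of its UMIs, with a ratio of oligodendrocyte-like to committed cells of 8.15 (5.29 to 13.1) and 7.53 (4.83 to 12.2). It was the 1 gene of the 3 measured in that step that was at least 1.5-fold higher (12.8% of 3309 genes were), and 0 of the 3 were lower (25.4%).

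**Figure D2:**
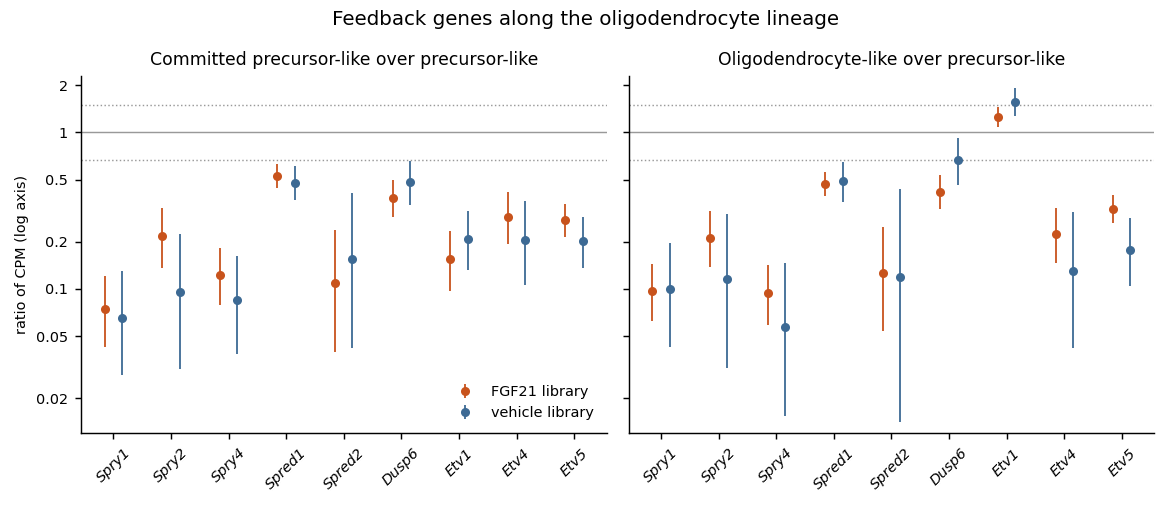
Ratio of CPM between stages of the oligodendrocyte lineage on a log axis, for each of the 9 genes, with FGF21 points left of vehicle points and exact 95% counting intervals. Dotted lines mark 1.5-fold either way. All 9 genes lie below the lower line in committed cells, and Etv1 alone lies above 1 in oligodendrocyte-like cells, at 1.26 and 1.57.

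Counted per cell, with background UMIs included, several of the genes were found together most often in precursor-like cells. At 2000 UMIs per cell, 3 or more of the 9 genes were found in 66.8% of 573 FGF21 and 61.2% of 366 vehicle precursor-like cells. The same share was 47.2% of 36 and 34.0% of 156 mural-like cells, 31.1% of 164 and 26.0% of 77 astrocyte-like cells, and 22.1% of 869 and 13.9% of 1350 microglia-like cells. In committed precursor-like cells it was 5.26% of 38 and 8.11% of 37 cells. None of the 9 was found in 1.57% of FGF21 and 2.73% of vehicle precursor-like cells, against 31.6% and 37.8% of committed cells. In erythroid-like cells, which should express few of these genes, 3 or more were found in 9.09% of 11 FGF21 and 4.35% of 23 vehicle cells, above the share in FGF21 committed cells and below that in vehicle committed cells. Shallower cells were left out of these shares, 36 FGF21 and 24 vehicle cells among astrocyte-like cells and 23 and 73 among microglia-like cells.

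**Figure D3:**
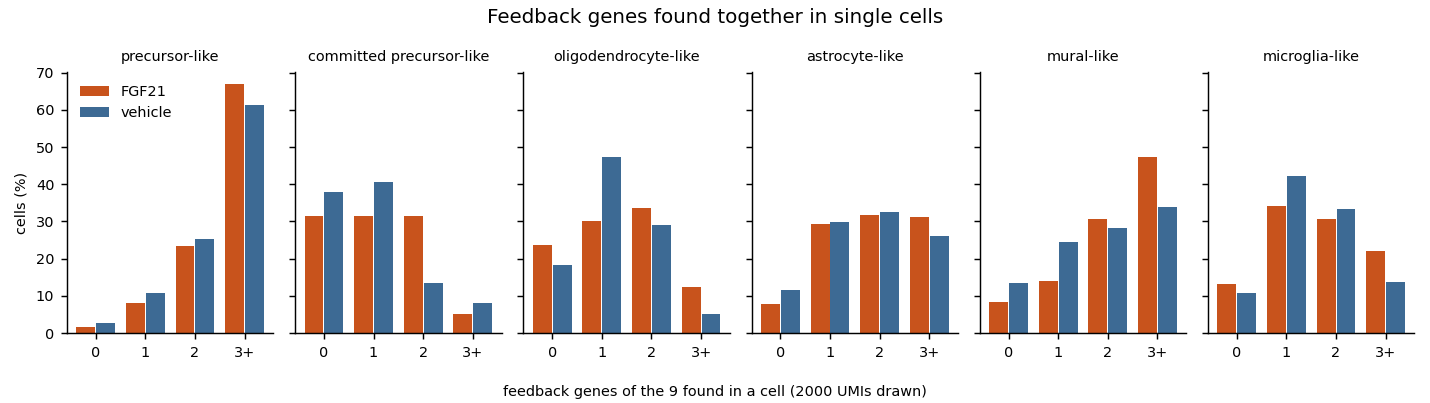
Share of cells (vertical axis, percent) in which 0, 1, 2, or 3 or more of the 9 genes were found after each cell was drawn down to 2000 UMIs, in 6 classes, with FGF21 bars left of vehicle bars. Precursor-like cells lie mostly at 3 or more genes, at 66.8% and 61.2%, and committed precursor-like cells mostly at 0 or 1.

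The next comparison asks whether 3 days of FGF21 changed these genes, and the largest class was considered first. In microglia-like cells Dusp6 was lower in the FGF21 library, with 2709 UMIs against 4242 UMIs in the vehicle library. The ratio was 0.673 (0.641 to 0.706), just short of the 1.5-fold line, and 0.658 (0.620 to 0.699), past it, once background was subtracted. Background accounted for 18.9% of the Dusp6 UMIs. At 2000 UMIs per cell, 42.6% of FGF21 and 26.3% of vehicle microglia-like cells had no Dusp6 UMI, and 7.59% and 19.8% had 3 or more. Leaving out the cell with the most Dusp6 UMIs in each library gave a ratio of 0.672. The ratio as counted crossed the 1.5-fold line with TMM scaling (0.658) and at 2000 UMIs per cell (0.631), and the subtracted ratio fell just short of it at 0.667 when cells were limited to 10% mitochondrial UMIs.

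Microglia-like cells of the libraries fell mostly into different clusters, a cluster with 862 FGF21 and 9 vehicle cells and a cluster with 25 FGF21 and 1410 vehicle cells. Within the mostly vehicle cluster Dusp6 had 227 CPM (117 to 397) in the FGF21 cells, on 12 UMIs, and 725 CPM (703 to 747) in the vehicle cells. The library, the pool of mice and the treatment cannot be told apart here.

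Etv5 moved the other way in microglia-like cells, with 1375 UMIs in the FGF21 and 949 UMIs in the vehicle library, a ratio of 1.53 (1.40 to 1.66). Subtracting background left 1.45 (1.28 to 1.64), inside the 1.5-fold line. Etv4 had the largest ratio, 2.50 (2.00 to 3.14), on 268 and 113 UMIs of which 62.6% were background. Spry2 was at 2.14 (1.60 to 2.87), Spred2 at 1.63 (1.23 to 2.18) and Spry4 at 1.51 (1.19 to 1.92), and these were likewise mostly background. Spred1 was at 1.31 (1.20 to 1.44), Spry1 at 0.986 (0.806 to 1.21) and Etv1 at 0.884 (0.780 to 1.00). In all, 5 of 9 genes were at least 1.5-fold higher (12.1% of 11375 genes were) and 0 were lower (5.26%). With TMM scaling 3 were higher, since Etv5 (1.49) and Spry4 (1.48) fell inside the line, and 1, Dusp6, was lower. After subtraction, 4 of 9 genes were left with at most 50% background, of which 0 were higher (4.37% of 9230 genes) and 1, Dusp6, was lower (10.3%). Etv1 was at 0.697 (0.550 to 0.885) after subtraction, short of the 1.5-fold line, and Spred1 at 1.14 (0.973 to 1.33). Over 11 settings the subtracted Etv1 ratio ranged from 0.649, past that line, to 0.753. The median log2 ratio of the 9 genes was 0.59, against 0.032 over all genes tested. Over only the 4 genes left after subtraction it was -0.17, against -0.12 over the 9230 genes left. These 4 do not include Spry2, Spry4, Spred2 and Etv4, which were higher as counted, so the medians cover different genes.

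Markers of other glia differed in the same direction as Spry2, Spry4, Spred2 and Etv4. Spry1, also mostly background, did not follow, with a ratio of 0.986 (0.806 to 1.21). Its background estimate in microglia-like cells was 44.7 CPM in the FGF21 and 27.0 CPM in the vehicle library. Over microglia-like cells, the 9 precursor markers summed to 1566 CPM in the FGF21 and 1009 CPM in the vehicle library, the 10 astrocyte markers to 1345 and 873 CPM, and the 9 oligodendrocyte markers to 1333 and 636 CPM, with none of them at 0. The 9 pericyte markers ran the other way, at 173 and 629 CPM. The part of these transcripts in the ratios as counted was not tested beyond the subtraction. The subtraction depends on the profile taken as background. With the profile of the 504 FGF21 and 571 vehicle barcodes that the filter left out, less of each gene was background, and 4 genes were higher after subtraction: Etv4 at 3.06 (2.07 to 4.53), Spred2 at 2.35 (1.57 to 3.52), Spry2 at 2.08 (1.19 to 3.63) and Spry4 at 1.93 (1.32 to 2.83). The share of all genes higher or lower under that profile was not counted, so these calls cannot be set against it. Under that profile Dusp6 stayed lower at 0.650 (0.617 to 0.684), and Spry1 was also lower at 0.648 (0.488 to 0.863). The directions of Spry1, Spry2, Spry4, Spred2 and Etv4 in microglia-like cells are therefore not settled by these counts, whereas the subtracted ratio ranged from 0.643 to 0.667 for Dusp6 and from 1.40 to 1.45 for Etv5 over 12 settings.

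**Figure D4:**
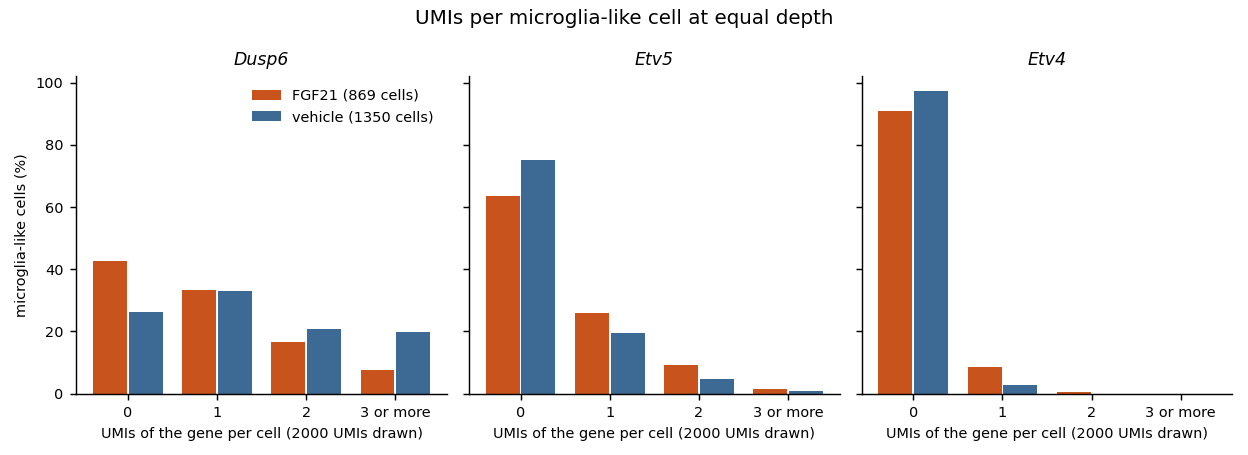
Share of microglia-like cells (vertical axis, percent) with 0, 1, 2, or 3 or more UMIs of Dusp6, Etv5 and Etv4 after each cell was drawn down to 2000 UMIs, with FGF21 bars (869 cells) left of vehicle bars (1350 cells). For Dusp6, cells with 3 or more UMIs are 7.59% and 19.8%, and for Etv5 cells with no UMI are 63.4% and 75%.

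In oligodendrocyte precursor-like cells, where 8 of the 9 genes had at most 50% background, none was 1.5-fold apart. Of 9 genes, 0 were higher (5.88% of 11402 genes were) and 0 lower (4.78%). Spred2 had the highest ratio, 1.41 (1.16 to 1.71), with 417 UMIs in the FGF21 and 142 UMIs in the vehicle library. Spry2 was at 1.32 (1.15 to 1.52) and Spry4 at 1.25 (1.14 to 1.38). Spry1, Spred1, Dusp6, Etv4 and Etv5 lay between 1.09 and 1.17. Etv1 was the only one below 1, at 0.841 (0.762 to 0.928) on 1122 and 639 UMIs. The median log2 ratio of the 9 genes was 0.19, against -0.0084 over all genes tested. After subtraction it was 0.099 over 8 genes, without Dusp6, against -0.095 over all genes left. Of the 8 genes measured after subtraction, 0 were higher (4.98% of 10370 genes) and 0 lower (7.58%), with Spry2 at 1.21 (1.04 to 1.42), Spry4 at 1.18 (1.06 to 1.32) and Etv1 at 0.785 (0.698 to 0.883). Dusp6, with 50.9% background, was left out of that count, and its subtracted ratio was 1.88 (1.41 to 2.51). With the profile of the left-out barcodes as background, 18.0% of its UMIs were background and the subtracted ratio was 1.12 (0.982 to 1.27). The subtracted ratio of Dusp6 in this class thus depends on the profile taken as background. Most FGF21 cells of this class (508) shared a cluster with 32 vehicle cells, and most vehicle cells (338) a cluster with 69 FGF21 cells. In the mostly vehicle cluster Spred2 was more than 1.5-fold higher in FGF21 cells, at 117 CPM (82.6 to 160.1) on 38 UMIs, against 56.4 CPM (46.9 to 67.2) in vehicle cells, while in the mostly FGF21 cluster it was at 79.4 CPM (71.6 to 87.8) and 74.9 CPM (44.4 to 118). Spry1 was at 371 CPM (308 to 444) in FGF21 and 278 CPM (257 to 301) in vehicle cells of the mostly vehicle cluster. Spry4 was at 224 CPM (176 to 282) and 245 CPM (225 to 267) there, with overlapping intervals, and at 307 CPM (291 to 323) and 208 CPM (154 to 274) in the mostly FGF21 cluster. In the mostly FGF21 cluster Dusp6 was at 221 CPM (208 to 235) and 149.8 CPM (105 to 207). The other 6 genes, Dusp6 among them, had overlapping intervals in the mostly vehicle cluster.

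In astrocyte-like cells 8 of the 9 genes had at least 50 UMIs, and 0 of these were higher (11.9% of 6140 genes were) and 0 lower (8.11%). Spry2 was at 1.02 (0.791 to 1.33), Spred1 at 1.05 (0.864 to 1.27) and Etv5 at 1.28 (0.996 to 1.66). Spry4 had the lowest ratio, 0.718 (0.485 to 1.08), on 83 UMIs in the FGF21 and 39 in the vehicle library, with 51.8% background. It was thus left out of the count after subtraction, and its subtracted ratio was 0.340 (0.163 to 0.708). With the profile of the left-out barcodes, 11.8% of its UMIs were background and the subtracted ratio was 0.691 (0.452 to 1.06). After subtraction 5 genes were measured, of which 0 were higher (13.0% of 5158 genes) and 0 lower (17.4%). The cells lay in a cluster with 100 FGF21 and 16 vehicle cells and a cluster with 100 and 85. In the more even cluster Spry4 was at 42.3 CPM (23.7 to 69.8) in FGF21 and 81.2 CPM (52.0 to 121) in vehicle cells, on 15 and 24 UMIs with overlapping intervals. The intervals of all 8 ratios as counted span 1, so changes of this size were not detectable at the depth of 408668 vehicle UMIs in this class.

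**Figure D5:**
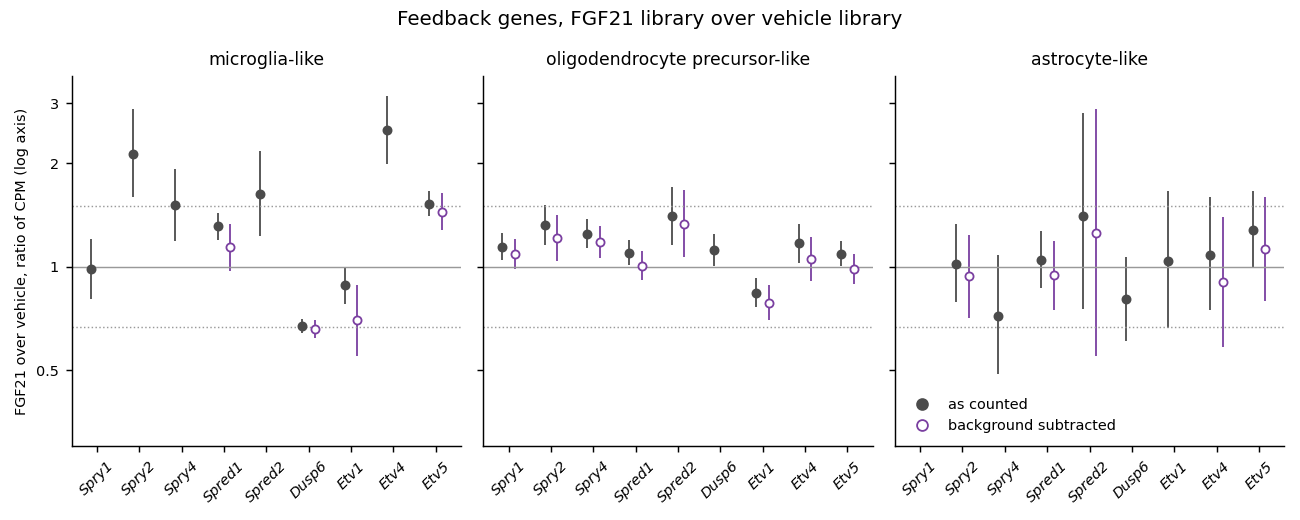
Ratio of the FGF21 over the vehicle library for each of the 9 genes in 3 cell classes, on a log axis. Filled points are ratios of CPM as counted with exact 95% counting intervals, open points are ratios after background subtraction with intervals from a normal approximation, given where at most 50% of the UMIs were background. Dotted lines mark 1.5-fold either way. Dusp6 in microglia-like cells lies at the lower line, at 0.673 and 0.658, and the precursor-like points lie between the lines.

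The other genes of the pathway were counted by list in microglia-like cells, to be read against 12.1% of all genes higher and 5.26% lower, with a median log2 ratio of 0.032. Of 5 measured FGF receptors and klothos, 3 were higher and 1 lower, with a median log2 ratio of 0.92. Fgfr2 was at 2.73 (1.73 to 4.43), Fgfr3 at 2.58 (2.04 to 3.29), Fgfrl1 at 1.9 (1.38 to 2.64), Fgfr1 at 1.17 (0.895 to 1.53) and Kl, which encodes klotho, at 0.538 (0.311 to 0.909). All 5 were at or near the background estimate, which was 96.0% of the UMIs for Fgfrl1 and 97.2% for Fgfr1, and 109% to 125% for the others. Of 13 adaptor and Ras genes, all measured, 0 were 1.5-fold higher and 0 lower (median log2 0.017), with the adaptor Grb2 at 0.971 (0.908 to 1.04) and Nras at 1.20 (1.09 to 1.32). Of 10 measured ERK cascade kinases, 0 were higher and 0 lower (median log2 0.026), with Rps6ka1 at 0.999 and Map2k1, which encodes MEK1, at 0.948. No secreted FGF ligand reached 50 UMIs, with Fgf1 on 32 UMIs in the FGF21 and 17 in the vehicle library and Fgf2 on 28 and 21. Of 6 measured other feedback inhibitors, 1 was higher and 0 lower (median log2 -0.12). It was Spred3, on 77 UMIs in the FGF21 and 54 in the vehicle library with 74.4% background. The ubiquitin ligase gene Cbl was at 0.828 (0.773 to 0.886) and the ERK phosphatase gene Dusp7 at 0.746 (0.685 to 0.811). Of 9 measured other ERK-induced genes, 3 were lower and 1 higher (median log2 -0.30). Lower were Fos with 20 UMIs in the FGF21 and 81 in the vehicle library (0.260, 0.151 to 0.428), Myc with 101 and 175 UMIs (0.608, 0.471 to 0.781) and Ier3 with 19 and 36 UMIs, of which 61.6% were background. Higher was Phlda1, at 1.95 with 101% background. Ccnd1 was at 1.26 (1.18 to 1.36) and Junb at 0.851 (0.757 to 0.956). Fos, Myc, Ier3, Phlda1 and Spred3 were named after their values were seen. Of 12 measured other ETS factors, 0 were higher and 0 lower (median log2 -0.064), with the blood-lineage factors Spi1 at 1.05 (0.982 to 1.12) and Fli1 at 0.962 (0.879 to 1.05).

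In precursor-like cells the same counts stand against 5.88% of all genes higher and 4.78% lower, with a median log2 ratio of -0.0084. Of 7 measured other ERK-induced genes, 2 were at least 1.5-fold higher, Ier2 at 2.42 (1.41 to 4.44) and Egr1 at 1.60 (1.05 to 2.49), and 0 were lower (median log2 0.44). Ccnd1, the G1 cyclin that ERK induces, had 5682 UMIs in the FGF21 and 1874 UMIs in the vehicle library, a ratio of 1.45 (1.38 to 1.53), and Phlda1 was at 1.16 (1.07 to 1.27). Of 4 measured receptors, 1 was higher, Fgfr2, at 2.25 (1.32 to 4.06) with 96.8% background, and 0 were lower (median log2 0.32). Fgfr3 was at 1.39 (1.15 to 1.68) with 48.9% background, Fgfr1 at 1.13 (0.970 to 1.33) and Fgfrl1 at 1.04 (0.887 to 1.22). Kl had 16 UMIs in the FGF21 and 23 in the vehicle library, and Fgfr4 had at most 2 UMIs in any library and compared class. Of 9 measured other feedback inhibitors, 1 was higher, Dusp9, on 44 and 8 UMIs, and 0 were lower (median log2 -0.034). Cic, which encodes Capicua, was at 1.30 (1.11 to 1.53) and Cbl at 0.860 (0.767 to 0.967). Of 13 adaptor and Ras genes 0 were apart (median log2 0.094), with Grb2 at 1.06 and Nras at 0.994. Of 10 kinases 0 were higher and 1 lower, Rps6ka1 with 127% background (median log2 0.071), with Araf at 0.921. Of 12 other ETS factors 0 were higher and 1 lower, Elk1 at 0.655 (0.483 to 0.892; median log2 of the list -0.055), with Spi1 at 1.04 and Elf2 at 0.941. Both measured FGF ligands were inside the 1.5-fold lines, Fgf1 at 1.27 and Fgf2 at 0.976. Ier2, Egr1, Dusp9, Rps6ka1 and Elk1 were named after their values were seen.

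In astrocyte-like cells 11.9% of all genes were higher and 8.11% lower. Of 4 measured receptors 0 were apart. Fgfr3 had 1049 CPM in the FGF21 and 1172 CPM in the vehicle library (0.895, 0.805 to 0.996), and Fgfr1 was at 0.969 (0.777 to 1.22), Fgfr2 at 1.02 (0.764 to 1.37) and Fgfrl1 at 1.11 (0.777 to 1.63). Of 10 measured adaptor and Ras genes 2 were higher, Sos1 at 1.61 (0.876 to 3.19) and Frs2 at 1.59 (0.791 to 3.52), and 0 were lower. Of 7 measured kinases Mapk3, which encodes ERK1, was higher at 1.91 (1.20 to 3.20) and Map2k2 was lower at 0.619 (0.390 to 1.00). Of 4 measured other feedback inhibitors 1 was higher, Spred3 at 1.76 (0.882 to 3.87), with Cbl at 0.681 and Cic at 1.39. Of 3 measured other ERK-induced genes 2 were higher, Phlda1 at 1.85 with 64.5% background and Ccnd1 at 1.62 with 152% background. Of 5 measured other ETS factors 1 was lower, Elf2 at 0.623 (0.379 to 1.05), with Spi1 at 1.05. The 1 measured ligand, Fgf1, was higher, on 80 UMIs in the FGF21 and 18 in the vehicle library, with an interval of the ratio from 0.891 to 2.66. Sos1, Frs2, Mapk3, Map2k2, Spred3 and Elf2 were named after their values were seen.

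Similarity of pattern was described over 16 points, 8 classes in both libraries, by Pearson's correlation of log2(CPM + 5), with no test because the points share libraries and background. Among the 9 genes, Spry4 was most like Spry2 (0.90), Spred2 (0.89) and Spry1 (0.89). Dusp6 stood apart from the others, between -0.25 (Etv4) and 0.49 (Etv5). Of 11120 eligible genes, the 2 most like each member were Mcm6 (0.90) and Cd200 (0.89) for Spry1, Nr2f1 (0.96) and Sgip1 (0.94) for Spry2, and Sgip1 (0.93) and Rhbdf1 (0.92) for Spry4. For Spred1 they were Zfp414 and Ptpn12 (0.94 each), and for Spred2 Kctd12b (0.93) and Fam110b (0.92). For Dusp6 they were Mob1a and Ifngr1 (0.92 each). For Etv1 they were Rnf141 (0.90) and Heca (0.89), for Etv4 Tspoap1 (0.94) and Adgrb1 (0.90), and for Etv5 Chrna4 (0.87) and Nrxn3 (0.86).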

How the data were processed

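Each deposited table gives counts of unique molecules for every barcode and gene, error-corrected by RSEC; per the file headers it was written by version 1.9.1 of the BD WTA Rhapsody Analysis Pipeline. The genome was GRCm38, as named in the submitters' processing notes. For annotation, cell calling and strand, the setting is not given in the sources used here. Cells had at least 500 UMIs, 300 genes and at most 25% mitochondrial UMIs. Scrublet in scanpy 1.11.5 removed 16 FGF21 and 17 vehicle doublets (0.767% of cells). Cells were clustered on 2000 variable genes, 30 components, 15 neighbours and Leiden resolution 1.0, and clusters that stayed unnamed or mixed were split at 0.5, a rule set after clusters were seen. UMIs were summed per class and library. Ratios had exact conditional-binomial intervals, levels Poisson and shares Clopper-Pearson intervals (scipy 1.17.1). Ratios between libraries required 50 UMIs over both libraries, and ratios counted between classes 50 UMIs over both classes in each library. Classes required 50 cells in each library to be compared between libraries or 20 to be placed. With 1 library per treatment no p-value was possible. Steps were tested on simulated counts. Alternatives included TMM scaling (edgeR 4.0.16), thinning, cell filters and other background estimates. The 9 genes, the pathway lists and the tests were chosen with earlier results of these data known. Named genes were all members, all FGF receptors and klothos, the 2 members of each pathway list with the most UMIs per class, and the 2 genes most like each member; other names, marked as such in the text, were chosen after their values were seen. A gene that the rule names is not reported here.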

Additional observations from a re-analysis of the deposited data

Results flagged for a closer look

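Dusp6 went in opposite directions in 2 classes of cells. The FGF21 over vehicle ratio was 0.673 (0.641 to 0.706) in microglia-like cells and 1.12 (1.00 to 1.25) in oligodendrocyte precursor-like cells, where 50.9% of its UMIs were background. The difference between the classes was not tested, because each treatment had 1 library.

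Among the barcodes left out by the filter, which had median mitochondrial shares of 42.2% and 42.6% and enter no comparison, 2 of the 9 genes were higher in the FGF21 library by their counting intervals. Spry1 had 16 UMIs in the FGF21 and 6 UMIs in the vehicle barcodes, a ratio of 3.33 (1.24 to 10.4). Etv5 had 67 and 51 UMIs, a ratio of 1.64 (1.12 to 2.41). The share of all genes higher by this measure was not counted, so the 2 genes cannot be set against it.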

How the results depend on the processing

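No paired analysis was possible because each treatment had 1 library. Of 199 alternative values of the counts, 186 stayed within 1.5 times the value given, and of 467 alternative ratios of single genes, 460 stayed within the counting interval, 7 left it and 0 called ratios changed direction. In microglia-like cells the count of genes at least 1.5-fold higher (5) was 3 with TMM scaling, and the count lower (0) was 1 with TMM scaling and 1 at 2000 UMIs per cell. In astrocyte-like cells the count higher (0) was 1 without the highest cell and 1 at 2000 UMIs per cell, and the count lower (0) was 2 with per-cell means. After background subtraction, the microglia-like count higher (0) was 4 with the profile of the left-out barcodes. The count lower (1) was 0 at a limit of 10% mitochondrial UMIs, 2 with doublets kept and 2 with the left-out profile. With the lowest quartile of background shares, 1 gene was higher in precursor-like cells (0 otherwise) and 1 lower in astrocyte-like cells (0 otherwise), and with the left-out profile 1 was higher in astrocyte-like cells. The cause of these differences was not tested. Shares of all genes were not counted under these alternatives. TMM moved the log2 ratios of a class by between -0.033 and 0.0050. Depth limits the astrocyte-like class, where the intervals of all 8 measured ratios as counted span 1. The 9 lower genes in committed cells rest on 38 cells per library, and on as few as 4 UMIs there, for Spred2 in the vehicle library.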

Other observations

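Classes with under 20 cells in a library were not ranked among the classes, and levels of some of them are given as values. Fibroblast-like cells (9 in the FGF21 and 19 in the vehicle library) had Spry1 at 229 CPM (105 to 435) and 361 CPM (234 to 533), and Dusp6 at 331 CPM (176 to 566) and 404 CPM (268.5 to 584). Cycling cells (10 and 3) had Spry1 at 304 CPM (215 to 417) and 221 CPM (88.7 to 454.5), and Spry2 at 208 CPM (136 to 304.5) and 347 CPM (173 to 620.2), but 1 of the 3 vehicle cells held 71.4% of the Spry1 and 72.7% of the Spry2 UMIs. Choroid plexus-like cells (16 and 28) had Spred2 at 65.6 CPM (31.5 to 121) and 52.4 CPM (26.2 to 93.8), with 22.4% and 15.3% background. Endothelial-like cells (16 and 33) had 0 and 4 UMIs of Spry4, and 1 and 8 UMIs of Spry1. Erythroid-like cells (20 and 46), which should hold little but haemoglobin transcripts, had from 0 to 6 UMIs of each of the 9 genes in the FGF21 library, and from 0 to 14 UMIs in the vehicle library, in both most for Dusp6.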
